A study of Mus musculus with 2 samples.

Results

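The C/EBP, PU.1 and myeloid transcription factors described here are 10 genes, Cebpa, Cebpb, Cebpe, Spi1, Irf8, Gfi1, Myb, Runx3, Zeb2 and Id1, chosen by symbol from the 27998 genes of the matrices and found in both libraries. They were followed in single haematopoietic stem and progenitor cells (HSPCs) that the series design calls LSK cells, the Lin- Sca-1+ c-Kit+ fraction of mouse bone marrow. The question was how the loss of Trmt6, part of the methyltransferase behind m1A in tRNA, goes with the level of each factor, with the share of cells in which it was detected and with the pairs of factors found in 1 cell.

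The labels give 1 library of WT cells, from Trmt6fl/fl mice, and 1 library of conditional knockout (cKO) cells, from Trmt6fl/fl mice with MX1-cre, both from bone marrow at 3 months of age. Mx1-Cre is a recombinase under an interferon-inducible promoter that acts in many tissues besides blood. The study describes Mx1-Cre and repeated pIpC injections for both genotypes, with controls that are Trmt6+/+. The labels give Trmt6fl/fl to both and the recombinase to the cKO alone. Genotype, library and possibly recombinase thus cannot be told apart. No source says how many mice were pooled. With 1 library per genotype no test across samples was possible, and every interval given is a 95% interval that covers counting error only.

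Stem cells and their early progeny use a small set of transcription factors to choose among the blood lineages. PU.1, encoded by Spi1, acts in both myeloid and lymphoid precursors, C/EBPα (Cebpa) is needed for the step to granulocyte-monocyte progenitors, and C/EBPε (Cebpe) works later, when granulocytes fill their secondary granules. C/EBPβ (Cebpb) takes part in granulopoiesis under stress, IRF8 (Irf8) is needed for monocytes and dendritic cells and limits granulocytes, and GFI1 (Gfi1) is a repressor that restrains stem cell proliferation and promotes granulocytes. MYB, RUNX3 and ZEB2 act in progenitors of several lineages, and ID1 (Id1) binds and blocks helix-loop-helix factors.

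The WT library held 8869 cell barcodes with 47991455 unique molecular identifiers (UMIs, each standing for 1 captured RNA molecule), and there were 9260 barcodes and 98323201 UMIs in the cKO library. After the limits of the study and the removal of likely doublets, 8148 WT cells with a median of 4143 UMIs and 8482 cKO cells with a median of 10042.5 UMIs were kept, and 24 barcodes occurred in both libraries. Levels are given as CPM, the UMIs of a gene per 1000000 UMIs, summed over cells, and shares of cells were read at a fixed depth of 2000 UMIs per cell, drawn at random, for 7946 WT and 8377 cKO cells. Trmt6 itself stood at 63.4 CPM in WT against 50.2 CPM in cKO cells, a log2 ratio of cKO over WT of -0.34 (-0.41 to -0.27), but counting from the 3′ end of transcripts cannot show the deletion of an inner exon. Of the sort markers, Kit was detected in 13.0% of WT and 4.66% of cKO cells, and Ly6a, which encodes Sca-1, in 7.92% and 24.2%. These sort markers differed between the libraries, and the part of the sort in the results below was not tested.

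Cells were placed in gates by marker genes that hold none of the 10 factors, each cell being read at 2000 UMIs. The stem gate needs UMIs of at least 2 different stem cell markers such as Procr, Mecom and Hlf, the lymphoid gate of 2 lymphoid markers such as Flt3, Dntt and Il7r, and the megakaryocyte gate of 2 markers such as Pf4 and Gp9. The protease gate needs 10 or more UMIs over Mpo, Elane, Prtn3, Ctsg and Ms4a3, genes of granulocyte-monocyte progenitors. These 5 are called the protease genes below, a name for the list, though not each encodes a protease. The stem gate held 566 WT and 954 cKO cells (7.12% and 11.4%), the lymphoid gate 896 and 159 (11.3% and 1.90%), the protease gate 1245 and 93 (15.7% and 1.11%), and the megakaryocyte gate 254 and 52 (3.20% and 0.621%). Most cells passed no gate, 4631 in WT (58.3%) and 6862 in cKO (81.9%), and 190 and 110 cells passed several. Many cells lay close to a limit: counted with cells that also passed another gate, 527 WT and 745 cKO stem gate cells passed with exactly 2 markers, and 1890 and 2267 cells had 1. In the protease gate 245 WT and 25 cKO cells lay just inside the limit, with 10 or 11 UMIs, and 417 and 39 just outside, with 8 or 9.

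Promoter sequence was available from RefSeq (GRCm38.p6) for 7 of the 10 factors in 13 windows of 250 bases upstream of a transcript start, and for Cebpe, Spi1 and Id1 none was matched. The windows of Cebpb and Irf8 are shown because these genes differed in opposite directions between the libraries. Capitals mark TGACG, the core of the cAMP response element, and TTCNNNGAA, the interferon gamma-activated site, each on either strand. The Cebpb window is chr2:167688665-167688914 and the first Irf8 window chr8:120736108-120736357, both on the plus strand.
Cebpb: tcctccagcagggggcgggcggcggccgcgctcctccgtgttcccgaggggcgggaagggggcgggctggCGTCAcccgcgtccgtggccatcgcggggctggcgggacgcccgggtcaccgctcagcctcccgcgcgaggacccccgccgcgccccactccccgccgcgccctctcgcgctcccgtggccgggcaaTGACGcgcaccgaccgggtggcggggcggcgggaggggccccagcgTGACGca
Irf8: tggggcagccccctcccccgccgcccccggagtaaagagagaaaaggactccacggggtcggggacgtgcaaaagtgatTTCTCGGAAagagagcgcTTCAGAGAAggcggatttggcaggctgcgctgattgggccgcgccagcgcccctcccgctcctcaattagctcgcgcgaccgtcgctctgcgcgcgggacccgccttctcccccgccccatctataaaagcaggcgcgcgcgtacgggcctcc
The Cebpb window holds TGACG 3 times, a motif found in 17.8% of all 32851 RefSeq promoter windows of this length. The Irf8 window shown holds TTCNNNGAA 2 times, against 7.02% of all windows with at least 1. A second Irf8 window, chr8:120738389-120738638, held none of the motifs searched. Zeb2, which was lower in cKO, also has 2 overlapping windows that hold both TGACG and TTCNNNGAA, so neither motif is particular to the gene shown. TTGCNNAA, a C/EBP site, is in 9.56% of all windows and in 2 windows of the factors, 1 each of Gfi1 and Zeb2, and GAGGAA, a PU.1 core, is in 23.3% of all windows and in 4 windows of the factors, all of Zeb2. A match is a run of letters and not a measured binding site, and the Cebpa window held none of these motifs.

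Over all kept cells, 5 of the 10 factors were lower by at least 2-fold in the cKO library, namely Cebpa, Cebpe, Irf8, Myb and Zeb2, while 4.56% of the 8780 genes at a mean of 5 CPM or more were. Gfi1 and Id1, 2 of 10, were higher by at least 2-fold, against 2.46% of all genes. The remaining factors, Cebpb, Spi1 and Runx3, differed by less than 2-fold. The median log2 ratio of the factors was -0.87, beside -0.06 for all genes tested, of which 43.3% were above 0, or 53.5% when edgeR's TMM factors set the scale. The list mixes genes of different lineages, and the gates took different shares of each library, so the same factors were read within gates.

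**Figure D1:**
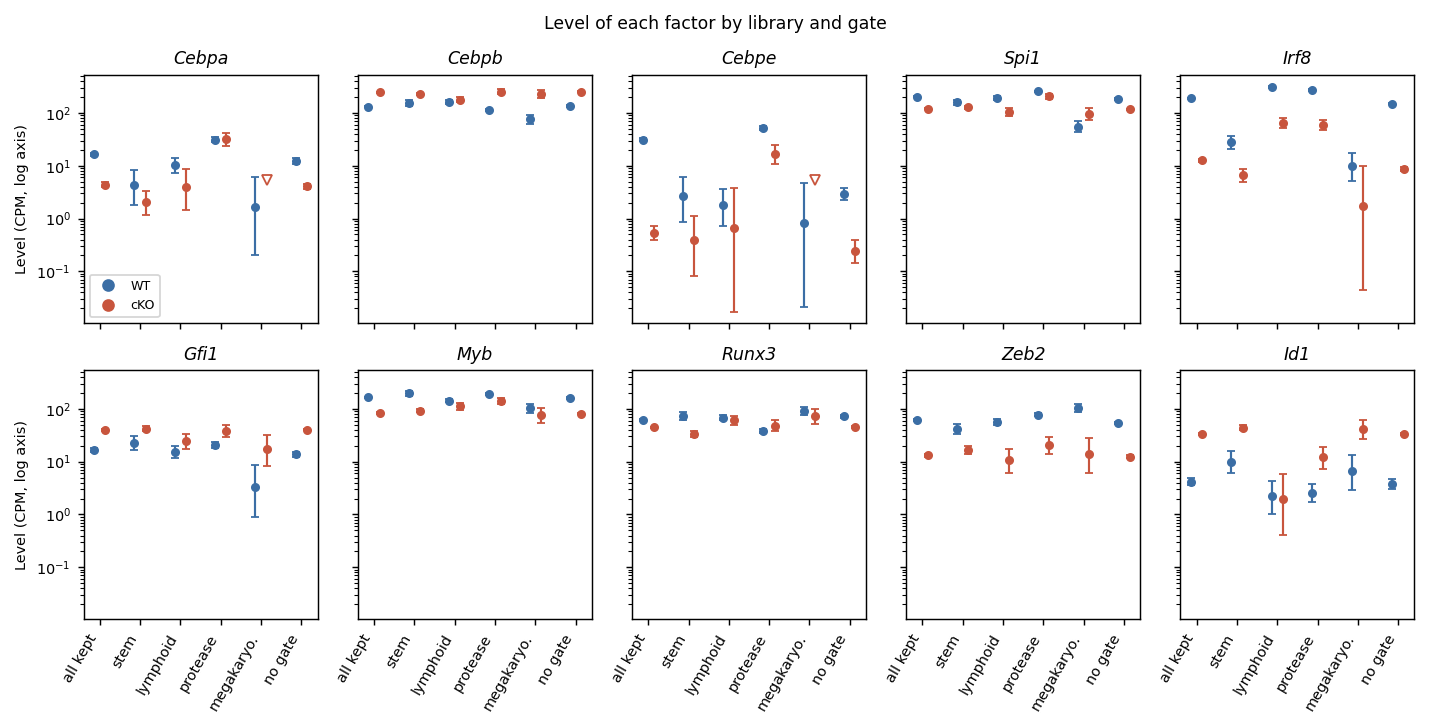
Level of each factor in CPM (log axis) over all kept cells and in 5 groups of cells, with WT in blue and cKO in red. Points are UMIs summed over the cells of 1 library, bars are exact Poisson 95% intervals, and open triangles mark the limit that a count of 0 allows. Irf8 stood at 190 CPM in WT against 12.7 CPM in cKO cells, and Cebpa was the factor whose levels in the protease gate were closest, 30.9 and 31.5 CPM.

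Among the C/EBP genes, Cebpa was lower in the cKO library as a whole, while in the protease gate the interval of the ratio included no difference. Cebpa (ENSMUSG00000034957, chromosome 7, 35119293 to 35121928, plus strand, GRCm38) was counted with 689 UMIs in WT and 380 UMIs in cKO cells, or 16.5 CPM (15.3 to 17.8) and 4.36 CPM (3.93 to 4.82), a log2 ratio of -1.92 (-2.11 to -1.74). In the protease gate, where granulocyte-monocyte progenitors fall, it stood at 30.9 CPM (27.8 to 34.3) in WT against 31.5 CPM (23.2 to 41.9) in cKO, a log2 ratio of 0.04 (-0.44 to 0.47). That gate held 52.0% of all WT Cebpa UMIs but 12.4% of those in cKO, where 79.2% lay in cells that passed no gate. Among cells that passed no gate the ratio was -1.62 (-1.86 to -1.37), and in the lymphoid gate -1.27 (-2.90 to -0.13) on 41 and 6 UMIs. Cells without a gate had 1950 CPM of the protease genes in WT and 600 CPM in cKO. Per 1000 protease UMIs they had 6.39 Cebpa UMIs (5.64 to 7.22) in WT and 6.78 (6.04 to 7.59) in cKO, intervals that overlap. The protease gate did not hold cells with the same protease content either, at 17919.5 CPM of these genes in WT and 9839 CPM in cKO. Per 1000 protease UMIs that gate had 1.73 Cebpa UMIs (1.55 to 1.92) in WT and 3.21 (2.36 to 4.26) in cKO. These intervals lie apart, with cKO higher, unlike the levels in CPM. The part of protease content in the Cebpa ratios of the protease gate and of cells without a gate was not tested. With the WT mix of gates, the cKO gates were weighted by the UMIs that each gate held in WT. Under this alternative, chosen after the data were seen, the Cebpa ratio over all cells was -0.53.

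At 2000 UMIs a Cebpa UMI was found in 2.72% of WT cells (2.37 to 3.10) against 0.752% of cKO cells (0.578 to 0.961). Megakaryocyte gate cells, a type that should lack Cebpa, had one in 0.787% of 254 WT cells (0.0955 to 2.82), at a median depth before thinning of 4445 UMIs against 4222 for all these WT cells, and in 0 of 52 cKO cells, at 11261.5 against 10095 UMIs, so that a share of up to 5.77% remains possible. In the protease gate the shares were 6.35% of 1245 WT cells (5.06 to 7.85) against 4.30% of 93 in cKO (1.18 to 10.6). By the share alone, the WT protease gate lies apart from the megakaryocyte gate, while all WT cells, all cKO cells, the cKO protease gate, and the 2 of 566 WT and 1 of 954 cKO stem gate cells cannot be told from background. By level, over all UMIs, the megakaryocyte gate had 1.67 CPM of Cebpa (0.203 to 6.04) in WT and 0 UMIs in cKO. The cKO limit was 5.26 CPM at 3 counts, and 6.47 CPM by the exact Poisson interval. The protease gates of both libraries and all WT cells lay above that gate with intervals apart. All cKO cells and both stem gates overlapped the megakaryocyte gate by level too.

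Cebpe (ENSMUSG00000052435, chromosome 14, 54710360 to 54712174, minus strand) had the largest difference of the 10 over all cells. It was counted with 1307 UMIs in WT and 47 UMIs in cKO cells, 31.3 CPM (29.6 to 33.0) and 0.539 CPM (0.396 to 0.717), 57.5-fold lower in cKO with a log2 ratio of -5.84 (-6.31 to -5.44). Cebpe was concentrated in few WT cells: 53 cells that passed the secondary granule gate (20 or more UMIs over genes such as S100a8, Ngp, Camp and Ltf) held 34.7% of its WT UMIs at 1196 CPM, and 48 of these 53 cells had a Cebpe UMI. The protease gate held another 46.4%. No cKO cell fell in the secondary granule gate, 0 of 8377, and a share of up to 0.0358% remains possible.

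Within the protease gate Cebpe was 3.07-fold lower in cKO, 52.5 CPM (48.4 to 56.8) against 16.8 CPM (10.9 to 24.8), a log2 ratio of -1.62 (-2.28 to -1.07). Protease genes, which set this gate, summed to 17919.5 CPM in its WT and 9839 CPM in its cKO cells, and their part in the Cebpe ratio was not tested. Cells that passed no gate had 61 and 18 UMIs, 2.92 and 0.243 CPM. In those cells the secondary granule genes together stood at 240 CPM in WT against 5.96 CPM in cKO, and their part in the Cebpe counts was not tested. With stricter gates the ratio was -0.84, short of 2-fold, on 593 and 23 UMIs. With the WT mix of gates, which leaves out the secondary granule gate and gives the cKO gates their WT weights, the ratio was -2.05 over all cells.

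Cebpb (ENSMUSG00000056501, chromosome 2, 167688915 to 167690418, plus strand) was the only C/EBP gene of the 10 factors that was higher in cKO. The single exon of this gene gives several protein isoforms by the choice of start codon, which RNA counts cannot separate. Its level was 132 CPM (129 to 136) in WT against 246 CPM (243 to 249.5) in cKO cells, a log2 ratio of 0.90 (0.86 to 0.94). Within gates it was 0.53 (0.36 to 0.72) in the stem gate, 1.15 (0.97 to 1.31) in the protease gate and 1.60 (1.199 to 2.002) in the megakaryocyte gate. In the lymphoid gate it was 0.15 (-0.07 to 0.35), an interval that includes no difference. Over these gates and the cells without one, Cebpb in cKO ran from 178 CPM in the lymphoid gate to 252 CPM in cells that passed none, while in WT it ranged from 75.3 CPM in the megakaryocyte gate to 161 CPM in the lymphoid gate.

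Spi1, the gene of PU.1, was modestly lower in cKO in most gates. Spi1 (ENSMUSG00000002111, chromosome 2, 91082390 to 91115756, plus strand) stood at 200.2 CPM (196 to 205) in WT against 119 CPM (117 to 122) in cKO cells, a log2 ratio of -0.74 (-0.79 to -0.70). Within gates the ratio was -0.33 (-0.52 to -0.14) in stem, -0.89 (-1.15 to -0.64) in lymphoid and -0.32 (-0.49 to -0.15) in protease gate cells. In the megakaryocyte gate it went the other way, 55.2 CPM in WT against 96.4 CPM in cKO, a ratio of 0.81 (0.26 to 1.34) on 66 and 55 UMIs. The markers of that gate summed to 3650 CPM in its WT cells and 1040 CPM in its cKO cells, so the gate did not hold cells with the same marker level, and the part of this in the Spi1 ratio was not tested.

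Irf8 (ENSMUSG00000041515, chromosome 8, 120736358 to 120756694, plus strand) was lower in cKO in the stem, lymphoid and protease gates and in cells without a gate. Over all cells it had 7934 UMIs in WT and 1107 UMIs in cKO, 190 CPM (186 to 194) and 12.7 CPM (12.0 to 13.5), a log2 ratio of -3.90 (-4.00 to -3.81). With the WT mix of gates, in which the cKO gates take their WT weights, the ratio was -2.64. Levels in WT ran from 28.0 CPM in the stem gate through 272 CPM in the protease gate to 307 CPM in the lymphoid gate. The cKO levels in the same gates were 6.61, 59.1 and 64.8 CPM, the same order of the stem gate below the others, with the protease and lymphoid intervals overlapping (47.4 to 72.8 and 52.5 to 79.0). The log2 ratio was -2.08 (-2.66 to -1.499) in stem, -2.24 (-2.56 to -1.95) in lymphoid and -2.20 (-2.53 to -1.90) in protease gate cells. With gates at 1000 UMIs per cell the stem gate ratio was -1.47, outside its interval. In cells that passed no gate the ratio was -4.11 (-4.23 to -3.99). There the lymphoid markers summed to 272 CPM in WT and 73.6 CPM in cKO, and the protease genes to 1950 and 600 CPM. The part of these differences in the ratio was not tested. In the megakaryocyte gate 12 WT and 1 cKO UMIs were counted, with an interval that includes no difference.

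Irf8 was detected at 2000 UMIs in 17.0% of WT cells (16.2 to 17.9) against 2.21% of cKO cells (1.90 to 2.55). In the megakaryocyte gate, a type that should lack it, the share was 1.18% of 254 WT cells (0.244 to 3.41) against 1.92% of 52 in cKO (0.0487 to 10.3). The 31.5% of WT protease gate cells (28.9 to 34.1) lie above that WT share with intervals apart. The 4.77% of WT stem gate cells (3.17 to 6.86) overlap it, and the 9.68% of cKO protease gate cells (4.52 to 17.6) and the 0.943% of cKO stem gate cells overlap the wide cKO interval, so none of these can be told from background by the share alone. By level, over all UMIs, Irf8 in the megakaryocyte gate was 10.04 CPM (5.19 to 17.5) in WT and 1.75 CPM (0.0444 to 9.77) in cKO. The WT stem gate, at 28.0 CPM (20.95 to 36.6), and the cKO protease gate, at 59.1 CPM, lay above with intervals apart, and the cKO stem gate, at 6.61 CPM (4.92 to 8.69), overlapped it. As a further measure of RNA carried over between droplets, Irf8 UMIs were set against those of the 5 protease genes: per 1000 protease UMIs there were 15.2 Irf8 UMIs in the WT protease gate, 15.0 (7.76 to 26.2) in the WT megakaryocyte gate and 18.3 (13.7 to 23.9) in the WT stem gate, values whose intervals overlap. The lymphoid gate had 189 in WT and 128 in cKO. In cKO the stem gate had 13.2 (9.82 to 17.3) and the protease gate 6.003 (4.81 to 7.40). Relative to protease RNA, Irf8 in WT stem gate cells could thus not be told apart from WT protease gate cells, and the part of carried-over RNA in the stem gate ratio was not tested. The highest levels lay in the small gate for MHC class II genes, 2024.5 CPM in 21 WT cells and 736 CPM in 29 cKO cells, too few for a ratio.

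Gfi1 and Id1 were the factors higher by at least 2-fold in cKO. Gfi1 (ENSMUSG00000029275, chromosome 5, 107716657 to 107726036, minus strand) stood at 16.6 CPM (15.4 to 17.9) in WT against 39.7 CPM (38.4 to 41.0) in cKO cells, a log2 ratio of 1.26 (1.14 to 1.38). Within gates the ratio was 0.89 (0.44 to 1.40) in stem, 0.71 (0.07 to 1.32) in lymphoid and 0.87 (0.42 to 1.28) in protease gate cells, and 1.55 (1.38 to 1.73) in cells that passed none. The megakaryocyte gate had 4 WT and 10 cKO UMIs, a ratio of 2.29 (0.60 to 4.52). Gfi1 was detected in 3.21% of WT and 7.89% of cKO cells, and in 3.89% (2.45 to 5.83) and 9.43% (7.65 to 11.5) of stem gate cells. In the megakaryocyte gate a Gfi1 UMI was found in 0.787% of 254 WT cells (0.0955 to 2.82) against 1.92% of 52 in cKO (0.0487 to 10.3), intervals that overlap those of the stem gate, so by the share alone stem gate detection cannot be told from background. By level, over all UMIs, the stem gate had 22.7 CPM (16.4 to 30.6) in WT and 42.4 CPM (37.9 to 47.2) in cKO, above the 3.35 CPM (0.912 to 8.57) and 17.5 CPM (8.41 to 32.2) of the megakaryocyte gate with intervals apart.

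Id1 (ENSMUSG00000042745, chromosome 2, 152736251 to 152737410, plus strand) went from 175 UMIs in WT to 2884 UMIs in cKO cells, 4.19 CPM (3.59 to 4.86) and 33.1 CPM (31.9 to 34.3), 7.87-fold higher with a log2 ratio of 2.98 (2.76 to 3.21). The stem gate had 10.0 CPM (6.04 to 15.7) in WT against 43.9 CPM (39.4 to 48.9) in cKO, a ratio of 2.10 (1.47 to 2.88). The protease gate ratio was 2.24 (1.29 to 3.11) on 30 and 18 UMIs, and the megakaryocyte gate ratio 2.59 (1.45 to 4.02) on 8 and 24 UMIs. The lymphoid gate had few Id1 UMIs in both libraries, with 9 UMIs in 896 WT and 3 UMIs in 159 cKO cells, 2.28 and 2.004 CPM. In WT the lymphoid interval (1.04 to 4.32) overlapped that of the protease gate (1.75 to 3.70) and of cells without a gate (3.04 to 4.77). In cKO the lymphoid interval (0.413 to 5.86) lay below those of the stem, protease and megakaryocyte gates.

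Of the factors with wider roles, Myb and Zeb2 were lower in cKO, and Runx3 differed by gate. Zeb2 (ENSMUSG00000026872, chromosome 2, 44983632 to 45117395, minus strand) stood at 61.3 CPM (58.9 to 63.7) in WT against 13.1 CPM (12.3 to 13.9) in cKO cells, a log2 ratio of -2.23 (-2.33 to -2.12). It was lower in each gate that gave a ratio: -1.35 (-1.76 to -0.93) in stem, -2.34 (-3.21 to -1.65) in lymphoid, -1.88 (-2.47 to -1.39) in protease and -2.79 (-4.12 to -1.85) in megakaryocyte gate cells. In WT its level was highest in the megakaryocyte gate, 103 CPM, and in cKO none of these 4 gates exceeded the 20.8 CPM of the protease gate.

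Myb (ENSMUSG00000019982, chromosome 10, 21124935 to 21160984, minus strand), which encodes a factor for progenitor self-renewal, had 167 CPM (163 to 171) in WT against 83.3 CPM (81.4 to 85.3) in cKO cells. Its log2 ratio of -1.004 (-1.05 to -0.96) lay at the limit of 2-fold, and it ended on the other side under the scaling factors of edgeR and under 4 other choices. The ratio was -1.10 (-1.28 to -0.91) in the stem gate, where the WT level was 198 CPM and the cKO level 92.7 CPM, and smaller in the lymphoid gate, -0.37 (-0.63 to -0.12), and the protease gate, -0.44 (-0.66 to -0.24). With stricter gates the ratio was -0.69 in the stem gate and -0.73 in the protease gate, so that the order of these gates turned.

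Runx3 (ENSMUSG00000070691, chromosome 4, 135120652 to 135177990, plus strand) stood at 62.0 CPM in WT against 44.5 CPM in cKO cells, a log2 ratio of -0.48 (-0.55 to -0.41). In the stem gate the ratio was -1.13 (-1.43 to -0.82), from 72.3 to 33.0 CPM, and -0.96 with median-of-ratios size factors, short of 2-fold. The intervals in the lymphoid (-0.17, -0.53 to 0.18), protease (0.34, -0.05 to 0.69) and megakaryocyte gates (-0.33, -0.90 to 0.19) include no difference.

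**Figure D2:**
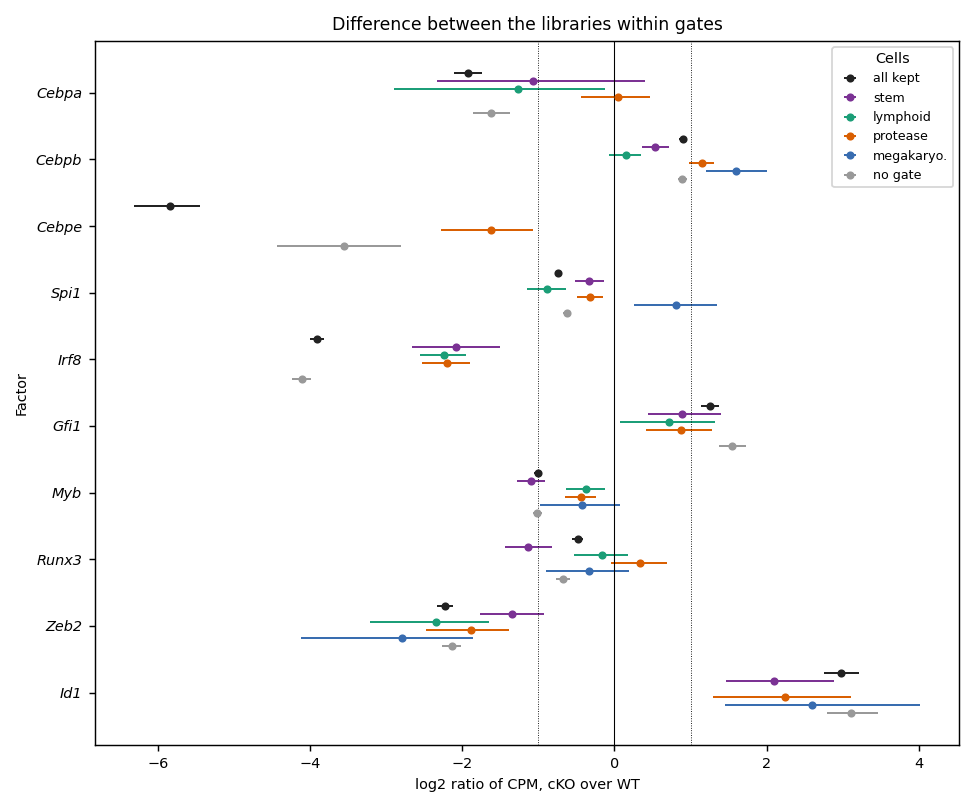
log2 ratio of CPM, cKO over WT, for each factor over all kept cells (black) and within gates (colours), with exact conditional binomial 95% intervals. Gates with fewer than 20 UMIs of a factor over both libraries are not drawn, and dotted lines mark 2-fold. Irf8 and Zeb2 lie left of 0 in every gate drawn, Gfi1 and Id1 lie right of 0, and the Cebpa point for the protease gate (orange) lies at 0.04.

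Read as counts, the stem gate had 4 of 8 factors at a mean of 10 CPM or more that were lower by at least 2-fold in cKO (Irf8, Myb, Runx3 and Zeb2), against 5.73% of 7329 genes. Id1 alone was higher there, against 2.02% of genes, and Cebpa and Cebpe were below the minimum level. In the lymphoid gate 2 of 7 factors were lower, Irf8 and Zeb2, against 6.08% of genes, and 0 were higher, against 2.66%. In the protease gate 3 of 9 were lower (Cebpe, Irf8 and Zeb2), against 3.07%, and Cebpb was higher, against 2.27%, with Id1 below the minimum level. In the megakaryocyte gate 1 of 7 was lower, Zeb2, against 7.23%, and 3 were higher, Cebpb, Gfi1 and Id1, against 3.87%, the Gfi1 value resting on 14 UMIs. Markers of that gate summed to 3650 CPM in its WT and 1040 CPM in its cKO cells, and their part in these counts was not tested. Among cells that passed no gate 3 of 8 were lower (Irf8, Myb and Zeb2), against 4.67%, and 2 were higher (Gfi1 and Id1), against 2.12%. Irf8 and Zeb2 were lower by at least 2-fold in the stem, lymphoid and protease gates and in the cells without a gate. With stricter gates Myb (-0.69) and Zeb2 (-0.93) in the stem gate and Cebpe (-0.84) and Cebpb (0.91) in the protease gate fell short of 2-fold. Gfi1 in the stem gate, at 0.89, reached 2-fold with stricter gates (1.59), with gates at 1000 UMIs per cell (1.68) and with median-of-ratios size factors (1.06). Under these size factors Myb (-0.93) and Runx3 (-0.96) in the stem gate fell short of 2-fold, which left Irf8 and Zeb2 lower there. With 7 to 9 factors per gate these counts describe the list and rest on 1 library per genotype.

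Detection in single cells followed the levels once depth was equal. At 2000 UMIs 7 of the 10 factors were found in a smaller share of cKO than WT cells with intervals apart, against 29.1% of the 8780 genes, and Cebpb, Gfi1 and Id1 were found in a larger share, against 21.4%. Cebpb was detected in 22.7% of WT and 36.4% of cKO cells, Spi1 in 30.7% and 22.0%, Myb in 28.6% and 15.1%, Runx3 in 12.7% and 8.11%, and Zeb2 in 10.5% and 2.81%. Cebpe was found in 2.24% of WT and 0.119% of cKO cells, the latter below the 5.77% that 0 of 52 cKO megakaryocyte gate cells allows, so that it cannot be told from background. Without thinning the Spi1 share was 54.8% in WT and 66.8% in cKO, and the Runx3 share 26.1% and 33.4%, the opposite of the order of their CPM, and no order is read from the unthinned shares. The mean number of the 10 factors found per cell was 1.31 in WT and 1.01 in cKO, and 12.9% of WT and 5.71% of cKO cells had 3 or more. In the protease gate these shares were 19.9% and 10.8%, and in the stem gate 7.77% and 8.18%.

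The level of several factors followed the protease content of the cell. Cells were split by their UMIs of the 5 protease genes per 2000 into bins of 0, 1 to 2, 3 to 5, 6 to 9, 10 to 29 and 30 or more, which held 635 to 2493 WT cells except for 426 in the last, and 3717, 3483, 921, 161, 81 and 14 cKO cells. Cebpa went from 3.01 CPM in WT cells without a protease UMI to 37.3 CPM in the last bin, and in cKO from 2.29 to 33.8 CPM in the bin of 10 to 29. It was higher in cKO at 6 to 9 UMIs, 25.6 against 17.1 CPM, and at 10 to 29, 33.8 against 24.9 CPM, with overlapping intervals. Cebpa was lower in cKO in the other bins. Only at 1 to 2 UMIs did the intervals lie apart, 8.27 CPM (6.58 to 10.3) in WT against 3.09 CPM (2.54 to 3.73) in cKO. Spi1 went from 124 to 259 CPM in WT and from 111 to 194 CPM in the bin of 10 to 29 in cKO, so it was close in both libraries among cells without protease UMIs. The last cKO bin has only 14 cells and was left out of the directions given for cKO.

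Irf8 stayed lower in cKO at every protease content: 144 CPM in WT against 14.3 CPM in cKO cells without protease UMIs, and 298 CPM (285 to 311) and 67.7 CPM (54.0 to 83.8) in the bin of 10 to 29, where both libraries were highest. Cebpe in WT was low in the middle bins, 5.37 CPM at 6 to 9 UMIs, and high at both ends, 28.8 CPM without protease UMIs and 137 CPM at 30 or more. The cKO library reached 85.0 CPM (53.3 to 129) in its 14 cells of the last bin, on 22 UMIs, an interval that overlaps the WT one of 128 to 148, against 2.42 CPM in the bin before. Id1 in cKO went the other way, from 37.6 CPM without protease UMIs to 12.9 CPM at 10 to 29. In WT these bins had 5.35 CPM (3.06 to 8.69) and 3.21 CPM (2.01 to 4.86) of Id1, intervals that overlap, so no direction is read. Gfi1 was higher in cKO in each bin, 35.7 against 8.36 CPM without protease UMIs and 34.6 against 14.6 CPM at 10 to 29.

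**Figure D3:**
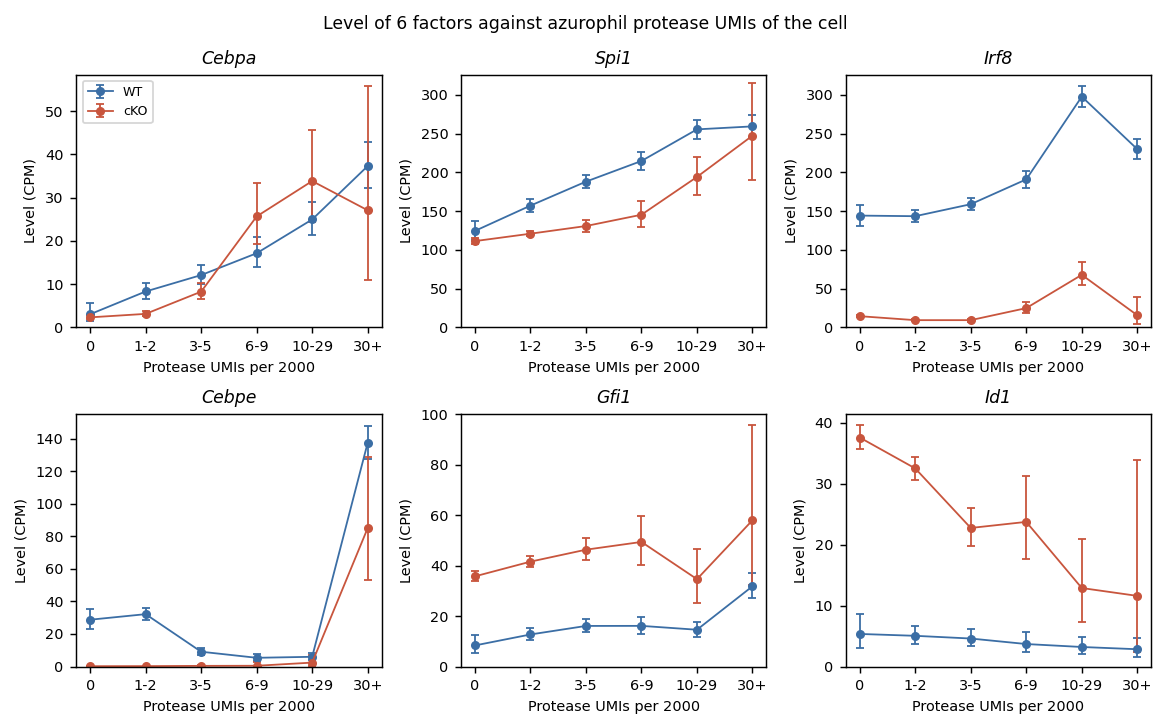
Level in CPM of 6 factors (linear axes from 0) in cells binned by UMIs of the protease genes per 2000 UMIs, WT in blue and cKO in red, with exact Poisson 95% intervals. The last cKO bin holds 14 cells. Cebpa and Spi1 climb up to the bin of 10 to 29 in both libraries, Irf8 in cKO stays below WT in all bins, and Id1 in cKO goes from 37.6 CPM in the first bin to 12.9 CPM in the bin of 10 to 29.

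Pairs of factors in the same cell were counted at 2000 UMIs and set against the product of the shares of each, which is the number expected if the factors were found independently. Cebpa and Spi1, whose proteins act together in granulocyte-monocyte progenitors, were found together in 87 of 7946 WT cells where the product gives 66.3, a ratio of 1.31 (1.05 to 1.62), and in 18 of 8377 cKO cells where it gives 13.9, a ratio of 1.30 (0.77 to 2.05). Spi1 and Irf8, partners on shared DNA elements, were together in 488 WT cells (6.14%) and 52 cKO cells (0.621%), with ratios of 1.17 (1.08 to 1.28) and 1.28 (0.95 to 1.67). Cebpa and Irf8 were together in 44 WT cells and in 0 of 8377 cKO cells, where a share of up to 0.0358% remains possible and the product gives 1.39 cells there. Gfi1 and Irf8, which mark granulocyte and monocyte choices, were together in 45 WT cells (product 43.5) and 12 cKO cells (product 14.6). Cebpb and Id1 were together in 198 cKO cells, a ratio of 1.16 (1.005 to 1.33), and in 23 WT cells, a ratio of 1.41 (0.89 to 2.11).

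Over all cells the interval lay above the product for 5 of the 12 WT pairs with a product of at least 5 cells (Cebpa with Spi1 and with Gfi1, Irf8 with Spi1 and with Zeb2, and Spi1 with Myb) and for 1 of 9 cKO pairs, Cebpb with Id1, and below it for 0. Pairs of other genes were not counted, so how often any pair lies above in such mixed cells is not known. The same pairs were read within single groups of cells (the gates, and the cells that passed several or none). There 44 combinations of pair, group and library had at least 5 cells from the product. Of these 2 lay above and 0 below. The 2 were Spi1 with Myb in the WT protease gate (182 cells, product 156) and Cebpa with Spi1 in WT cells that passed no gate (46 cells, product 32.0). With 95% intervals, some of 44 can lie apart by counting error alone. Products were smaller within groups, such as 91.6 cells for Spi1 with Irf8 in the WT lymphoid gate against 416 over all WT cells. The counts within groups and over all cells were therefore not compared. In the WT protease gate Cebpa and Spi1 were together in 31 cells where the product gives 31.7, and Cebpa and Irf8 in 23 where it gives 24.9. At 2000 UMIs per cell most pairs give few cells, so departures smaller than the intervals were not detectable at this depth.

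**Figure D4:**
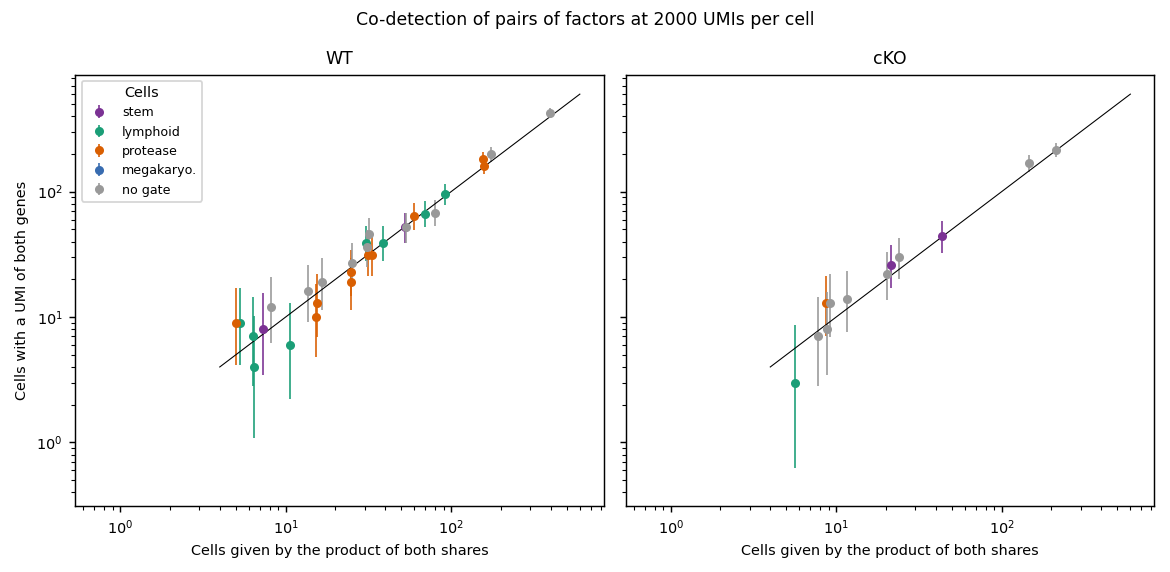
Cells with a UMI of both factors (vertical) against the number that the product of their shares gives (horizontal), both on log axes, for pairs with a product of at least 5 cells within a gate or among cells that passed no gate, with exact binomial 95% intervals. The line marks equality, and the megakaryocyte gate had no pair with a product this large. Points follow the line in WT (left) and cKO (right), with 2 WT intervals above it.

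Other genes of the same pathways were read from 3 lists. Of 14 receptors and myeloid effectors, 10 were at the minimum level over all cells, 7 of them lower by at least 2-fold in cKO (4.56% of all genes) and 0 higher (2.46%), with a median log2 ratio of -1.53 beside -0.06 for all genes. Csf1r, the M-CSF receptor and a target of PU.1, had 557 WT and 19 cKO UMIs, a ratio of -5.90 (-6.68 to -5.28), while Csf3r, the G-CSF receptor and a target of C/EBPα, stood at 27.8 and 20.3 CPM, a ratio of -0.45 (-0.56 to -0.34). Within the protease gate 3 of 10 were lower (3.07% of all genes) with a median of -0.68, Csf1r had a ratio of -2.45 (-3.87 to -1.48) and Csf3r of 0.34 (-0.10 to 0.73). The stem gate had 5 of the 14 at the minimum level, 2 of them lower (5.73% of all genes).

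Of 16 partners and modifiers, 12 were at the minimum level, 5 of them lower and 3 higher, against 4.56% and 2.46% of all genes. The higher ones were Cebpg, a C/EBP partner without an activation domain (1.07), Ddit3, which encodes the stress-induced C/EBP homologue CHOP (2.08), and Trib3, a pseudokinase induced with CHOP, with 92 WT and 13900 cKO UMIs (6.17, 5.88 to 6.49). Jun, an AP-1 subunit that can pair with C/EBP factors, was the lowest at -3.34 (-3.37 to -3.31). In the stem gate 5 of 12 were lower and Trib3 alone was higher (3.33), against 5.73% and 2.02% of all genes, with Cebpg at 0.83 and Ddit3 at 0.78. In the protease gate 3 of 10 were lower and 3 higher, against 3.07% and 2.27%, with a median of 0.08, and Trib3 had 3 WT and 219 cKO UMIs. Of 12 family members and opposing factors, 10 were at the minimum level, Runx1 alone was lower by at least 2-fold (-1.502, -1.59 to -1.42) and 0 were higher, against the same shares of all genes. Id2 had a ratio of 0.96 and Id3 was below the minimum level. In the stem gate 3 of 9 were lower, against 5.73% of all genes, with Gfi1b, the paralogue of Gfi1, at the lowest ratio of -2.16 (-2.61 to -1.71), and Id2 was higher at 1.49 (0.66 to 2.59), against 2.02%.

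The genes whose level across gates was most like each factor were sought over 12 points, 6 groups of cells in each of 2 libraries that share their cells' depth and mix, among 5041 genes. For Cebpe they were Hp (r = 0.99), Msrb1 and Taldo1, for Irf8 Ly86 (r = 0.97), Plac8 and Fam105a, and for Cebpa Atp8b4 (r = 0.96), Mapkapk2 and Ap3s1. For Spi1 they were Sun2 (r = 0.95), Anxa2 and Gle1, for Cebpb Snhg12 (r = 0.94), Tbpl1 and Hddc2, for Gfi1 Pkm (r = 0.89), Plaur and Dhrs7, and for Id1 Slfn2 (r = 0.92), Socs2 and Cisd2. Zeb2 was nearest to Hist1h2ap (r = 0.93), Fam96a and Hist1h2ab, and Runx3 to Zmynd11 (r = 0.87), Plek and Smim5. Among the factors themselves Spi1 and Cebpa had r = 0.81 and Gfi1 and Cebpb r = 0.82, while the lowest were Zeb2 and Cebpb at r = -0.87 and Id1 and Irf8 at r = -0.76. These correlations are descriptions over gates that are not independent.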

How the data were processed

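Single-cell RNA was measured in 1 WT and 1 cKO library. The authors deposited matrices of raw UMI counts, genes by barcodes, which per the file headers came from Cell Ranger 6.0.0, on GRCm38. Reads were not analysed here. The labels name version 2 of the 3′ kit and the study version 3.

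The limits of the study were applied: over 200 genes, under 4000 (WT) or 4500 (cKO) genes, under 10% (WT) or 5% (cKO) mitochondrial and under 5% hemoglobin UMIs. Doublets were scored by simulated doublets among 50 neighbours in 20 principal components of 1500 genes and removed at 0.8% per 1000 barcodes, 615 WT and 669 cKO cells. Gates were set at 2000 UMIs per cell, cells passing exactly 1 gate were assigned to it, and a gate with under 50 cells in a library gave no ratio. Levels within gates used all UMIs. log2 ratios had 0.5 prior counts. Intervals were exact (Poisson, conditional binomial, Clopper-Pearson; scipy 1.17.1). A count of 0 was given a limit of 3 counts. No p-value was computed, and a call means a ratio past 2-fold at a mean of 5 CPM (all cells) or 10 CPM (gates). The step was tested on simulated data.

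The factors, gates, pairs and gene lists were chosen with earlier results of these data known. Named genes were the 10 factors, Trmt6, the 3 most similar genes per factor (those of Myb are not reported here), at 20 CPM or more on log2(CPM + 10), and examples from 3 lists in which Itgam and Cebpd were not found. Sequences came from RefSeq, and gene coordinates from GENCODE M21 by gene ID. Alternatives were other scalings (edgeR 4.0.16 in R 4.3.3, and numpy 2.4.6), cells, gates, depths and minimum levels. Plots used matplotlib 3.10.9 in Python 3.11.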

Additional observations from a re-analysis of the deposited data

Results flagged for a closer look

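The Spi1 ratio had a different sign in the megakaryocyte gate than elsewhere. Its log2 ratio of cKO over WT was 0.81 in megakaryocyte gate cells, against -0.33 in stem, -0.89 in lymphoid and -0.32 in protease gate cells and -0.63 in cells that passed no gate. The difference between gates was not tested, since each genotype has 1 library, and the megakaryocyte value rests on 66 WT and 55 cKO UMIs.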

How the results depend on the processing

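Of 54 recomputed counts of factors, 43 stayed within 1.5 times the reported count and 11 moved, and of 230 recomputed ratios of single factors, 186 moved by less than their interval, 42 moved by more and 2 that differed from 0 changed sign. These were of Cebpe in the stem gate, which has 5 WT and 3 cKO UMIs: 0.28 with stricter gates (3 markers or double the UMIs) and 0.76 with gates at 1000 UMIs per cell, each on 0 WT and 2 cKO UMIs, so both values are set by the prior count. The Cebpa ratios of the stem and protease gates, whose intervals include no difference, also changed sign with stricter gates, to 0.28 (0 and 2 UMIs) and -0.14 (257 and 16 UMIs). Single ratios do not depend on the minimum level, so those of the 230 recomputed with another minimum level could not move. With the WT mix of gates, added after the data were seen, 3 factors were lower by at least 2-fold over all cells, as Cebpa (-0.53) and Myb (-0.72) no longer passed. Stricter gates gave 2 lower and 2 higher factors (Gfi1 and Id1) in the stem gate (123 WT and 220 cKO cells) and 2 lower, without Cebpe (-0.84), and 0 higher in the protease gate (609 and 28 cells). Gates at 1000 UMIs gave the same 2 higher in the stem gate. Median-of-ratios size factors gave 2 lower, without Myb (-0.93) and Runx3 (-0.96), and, with Gfi1 and Id1, 2 higher in the stem gate, where they moved the median of all genes from -0.10 to 0.07 and the share of genes above 0 from 41.8% to 56.4%. Over all cells they moved that median from -0.06 to 0.04 and the share from 43.3% to 54.0%, and edgeR's TMM factors to 0.03 and 53.5%, Cebpb just reached 2-fold under the former, and Myb fell short of 2-fold under both, with doublets kept and under a total without mitochondrial, ribosomal protein and marker genes. That total, and no minimum level, each gave 2 higher factors in the protease gate, Cebpb and Id1. With all UMIs in place of 2000 per cell, 4 factors were detected in a smaller and 5 in a larger share of cKO cells. The share of all genes was not counted at that depth. The cKO cells were deeper, with a median of 10095 against 4222 UMIs, so no order is read from these 2 counts. Irf8 and Zeb2 stayed lower over all cells under each alternative, from -3.90 to -2.64 and from -2.23 to -2.03, and Id1 stayed higher, from 2.67 to 3.08. The causes of these moves were not tested. No paired analysis was possible because each genotype has 1 library, and for the same reason no replicate could be left out. Counts under about 20 UMIs, as for Cebpa and Cebpe in the stem gate, limit those ratios.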

Other observations

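In gates too small for a ratio the factors had these levels. Erythroid gate cells, 59 in WT and 30 in cKO, had 32.1 CPM (16.6 to 56.1) and 130 CPM (97.6 to 170) of Cebpb, 5.35 CPM (0.649 to 19.3) and 44.2 CPM (26.2 to 69.9) of Id1, and 153 CPM and 118 CPM of Myb. MHC class II gate cells, 21 and 29, had 491 CPM (354 to 664) and 447 CPM (347 to 566) of Spi1, while Cebpa and Id1 had 0 UMIs in both libraries. B lineage gate cells, 11 and 46, had 396 CPM (248 to 599) and 98.7 CPM (69.9 to 136) of Irf8. Basophil or mast gate cells, 9 and 17, had 2 and 7 UMIs of Cebpa, 40.1 CPM (4.86 to 145) and 78.1 CPM (31.4 to 161).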
